A study of Mus musculus with 36 samples.

Results

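Macrophages of the mouse yolk sac were compared with the alveolar macrophages that descended from them after transfer into the lung. The comparison used the 4 arrays of macrophages sorted from E12.5 yolk sacs (E, embryonic day) and the 4 arrays of their descendants, chosen by the sample titles, out of 36 arrays in 9 groups of 4. Donors were wild-type C57BL/6 mice whose blood cells carried both CD45.1 and CD45.2. Donor cells were given through the nose to newborn Csf2rb-/- mice, and the cells recovered by lung lavage 6 weeks later are called YS-derived macrophages. These recipients lack the beta chain of the receptor for GM-CSF, the growth factor on which alveolar macrophages depend, so that the air spaces hold few such cells of their own. Native alveolar macrophages lavaged from untreated wild-type mice aged 6 weeks were the control for the end state, and lavaged adult cells (6 to 12 weeks) served to define a profile. Bone marrow (BM) monocytes of adults aged 6 to 12 weeks, E15.5 fetal liver (FL) monocytes and adult alveolar macrophages (AM) were transferred in the same way, and their descendants are called BM-derived, FL-derived and AM-derived. All transferred groups share the Csf2rb-/- recipient, which the native cells did not pass through. Collagenase freed the cells of yolk sac and fetal liver, marrow came from crushed bones and alveolar cells came from lavage, so handling and cell state cannot be told apart between yolk sac and YS-derived cells. The sources used here do not say whether a yolk sac sample pooled several embryos. Per the labels, replicates were biological.

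Yolk sac macrophages are among the first macrophages of the embryo and arise before haematopoietic stem cells. They clear dying cells and seed tissues such as the brain, where their descendants become microglia. Alveolar macrophages live in the air spaces of the lung, take up and break down surfactant lipid, and need GM-CSF and the nuclear receptor Pparg to form.

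Levels are log2 values normalised by RMA, so a difference of 1 is a 2-fold change. Of 19938 genes with a probe set of their own, 12244 exceeded the median of the table (4.62) in at least 4 arrays and were tested. Differences are given ± standard error with p-values of limma adjusted by the Benjamini-Hochberg method over all tested genes, and n is 4 arrays per group. Where a group mean lay under 4.62, that median replaced it and the fold is a lower bound ("at least"). Arrays correlated with the others of their group at 0.989 to 0.990 for yolk sac and 0.987 to 0.989 for YS-derived macrophages.

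Transfer was followed by a change in a large share of the genes measured. Of 12244 genes 5250 differed between YS-derived and yolk sac macrophages at an adjusted p under 0.05 (42.9%), of which 2405 rose (19.6%) and 2845 fell (23.2%). The shares that rose and fell are the background for each count of list members over this change. At least 2-fold changes were found for 994 that rose (8.12%) and 1137 that fell (9.29%). The 4 arrays of one group did not overlap those of the other for 5017 genes (41.0%). The median difference over all genes was -0.00208. From below the table's median to a mean above 8 went 62 genes, and 54 of these were also above 8 in native cells. The opposite path, from above 8 to below the median, was taken by 45 genes, and 40 of them were below the median in native cells too.

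**Figure D1:**
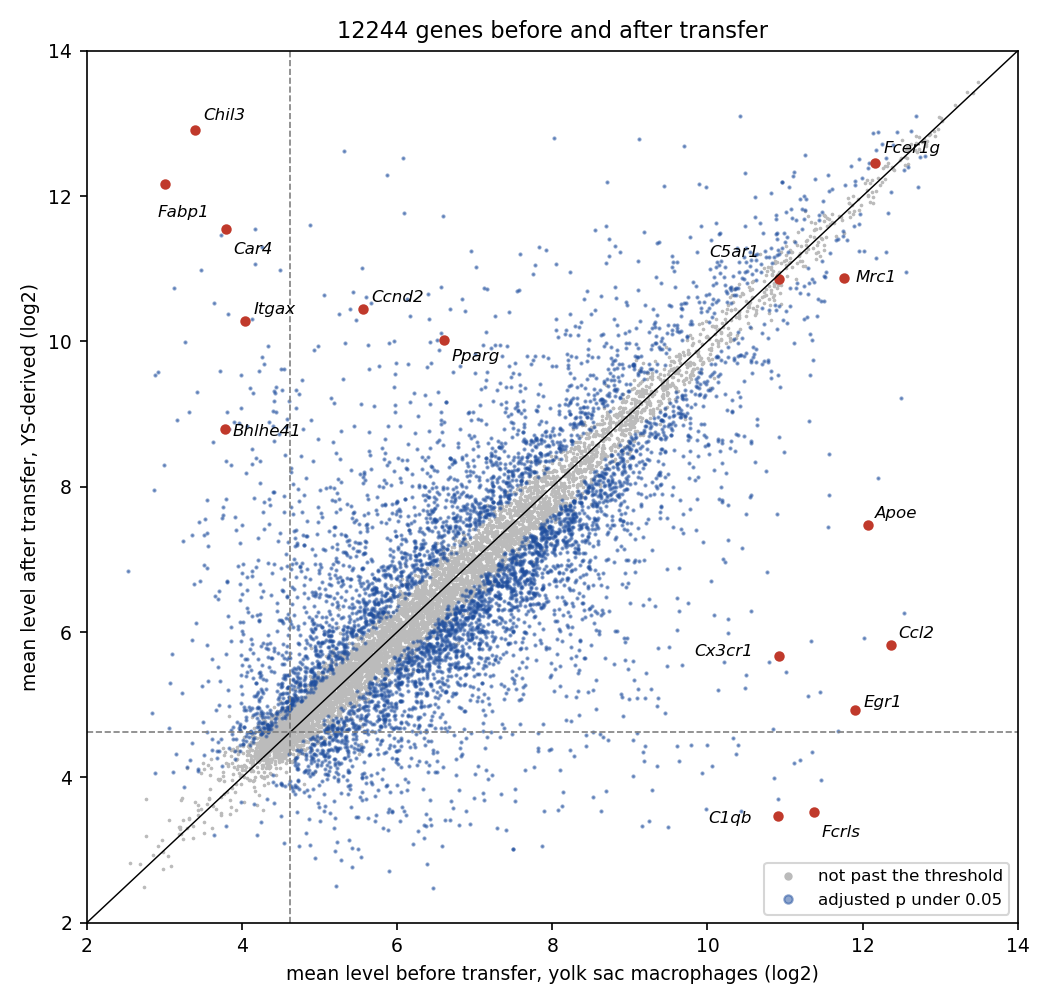
Mean log2 level of 12244 genes in 4 arrays of yolk sac macrophages (horizontal axis) and 4 arrays of YS-derived macrophages (vertical axis). Blue points passed an adjusted p of 0.05 and grey points did not; dashed lines mark the median of the table, 4.62. Chil3, Fabp1 and Car4 lie at the upper left and Fcrls and C1qb at the lower right, while C5ar1 and Fcer1g lie near the diagonal.

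The sorted cells carried the markers of their labelled types. In yolk sac macrophages Cx3cr1, the fractalkine receptor of fetal macrophages and microglia, stood at 11.09, 10.79, 10.71 and 11.11. In YS-derived cells it stood at 5.67, 5.91, 5.25 and 5.85, so the groups did not overlap (log2 difference -5.26 ± 0.20, adjusted p = 6.69e-21). Timd4, a receptor for phosphatidylserine on dying cells, was 6.85, 6.38, 7.03 and 6.79 before and 4.23, 4.33, 4.25 and 4.23 after transfer, at least 4.40-fold lower. Lyve1, a hyaluronan receptor of fetal and perivascular macrophages, was 11.20, 11.21, 11.25 and 11.72 before and 4.05, 4.50, 4.41 and 4.45 after, at least 105-fold lower. Both genes ended under the median of the table in all 4 YS-derived arrays.

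Not all fetal markers were lost. Mrc1, the mannose receptor, was 11.74, 11.69, 11.82 and 11.79 in yolk sac macrophages and 10.67, 10.86, 10.73 and 11.22 in their descendants. It fell 1.85-fold (log2 difference -0.89 ± 0.21, adjusted p = 0.000715) and was still among the brighter genes. Dab2, an endocytic adaptor, was 12.56 ± 0.05 (SD, n = 4) before and 10.88, 10.99, 10.75 and 11.22 after, a 3.04-fold fall. Native alveolar macrophages held both at similar levels, Mrc1 at 10.67 to 11.14 and Dab2 at 11.08 ± 0.08.

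Chil3, Fabp1 and Car4, which mark alveolar macrophages, had the 3 largest fitted rises. Chil3, a secreted chitinase-like protein, was 3.53, 3.50, 3.46 and 3.10 in yolk sac macrophages and 12.90 ± 0.10 (SD, n = 4), with a lowest array of 12.81, in YS-derived macrophages. The rise was at least 311-fold (log2 difference 9.50 ± 0.14, adjusted p = 5.42e-33). Fabp1, a fatty acid-binding protein, went from 3.25, 3.03, 2.95 and 2.83 to 12.06, 12.20, 12.36 and 12.02, at least 186-fold. Car4, a membrane-bound carbonic anhydrase, went from 3.97, 3.63, 3.78 and 3.79 to 11.51, 11.53, 11.46 and 11.69, at least 122-fold. For these 3 genes every yolk sac array was under the median of the table and every YS-derived array was far above it.

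Itgax, the CD11c integrin chain, was 4.20, 4.27, 3.94 and 3.77 before and 10.27, 10.29, 9.83 and 10.73 after transfer (at least 50.5-fold). Pparg, the nuclear receptor that directs alveolar macrophage formation, was already measurable in the yolk sac at 6.46, 6.56, 6.76 and 6.64. It reached 10.02, 9.85, 10.08 and 10.15, a 10.7-fold rise (log2 difference 3.42 ± 0.14, adjusted p = 5.72e-20). Fabp4, a lipid carrier, rose 38.1-fold, from 4.98 to 5.76 in the yolk sac arrays to 10.56 to 10.83. Marco, a scavenger receptor for particles and bacteria, rose 23.4-fold to 9.18, 9.35, 9.18 and 9.41.

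Siglecf, a sialic acid-binding receptor used to sort alveolar macrophages, rose 7.04-fold, from 5.54, 6.02, 6.10 and 5.69 to 8.53, 8.49, 8.88 and 8.72. All 4 native arrays lay higher, at 9.69, 9.55, 9.72 and 9.51, and this remaining gap of -0.96 ± 0.19 passed the test (adjusted p = 0.00183). It was the only gene among Chil3, Fabp1, Car4, Itgax, Pparg, Fabp4, Marco, Csf2rb and Siglecf that differed from native cells at the threshold. The rest of the 12 largest rises, all with arrays that did not overlap, were at least 115-fold for Mgst1 (a microsomal glutathione transferase), 68.9-fold for Sh2d1b1, 81.9-fold for Ctsk (cathepsin K), 121-fold for Mcemp1, 102-fold for Cd24a, 87.2-fold for Krt19 (a keratin), 60.2-fold for S100a8 and 41.3-fold for Serpinb1a (an inhibitor of neutrophil proteases). These 8 had yolk sac means under the median of the table, so their order is not settled. Plet1, whose yolk sac mean was above it, rose 157-fold.

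**Figure D2:**
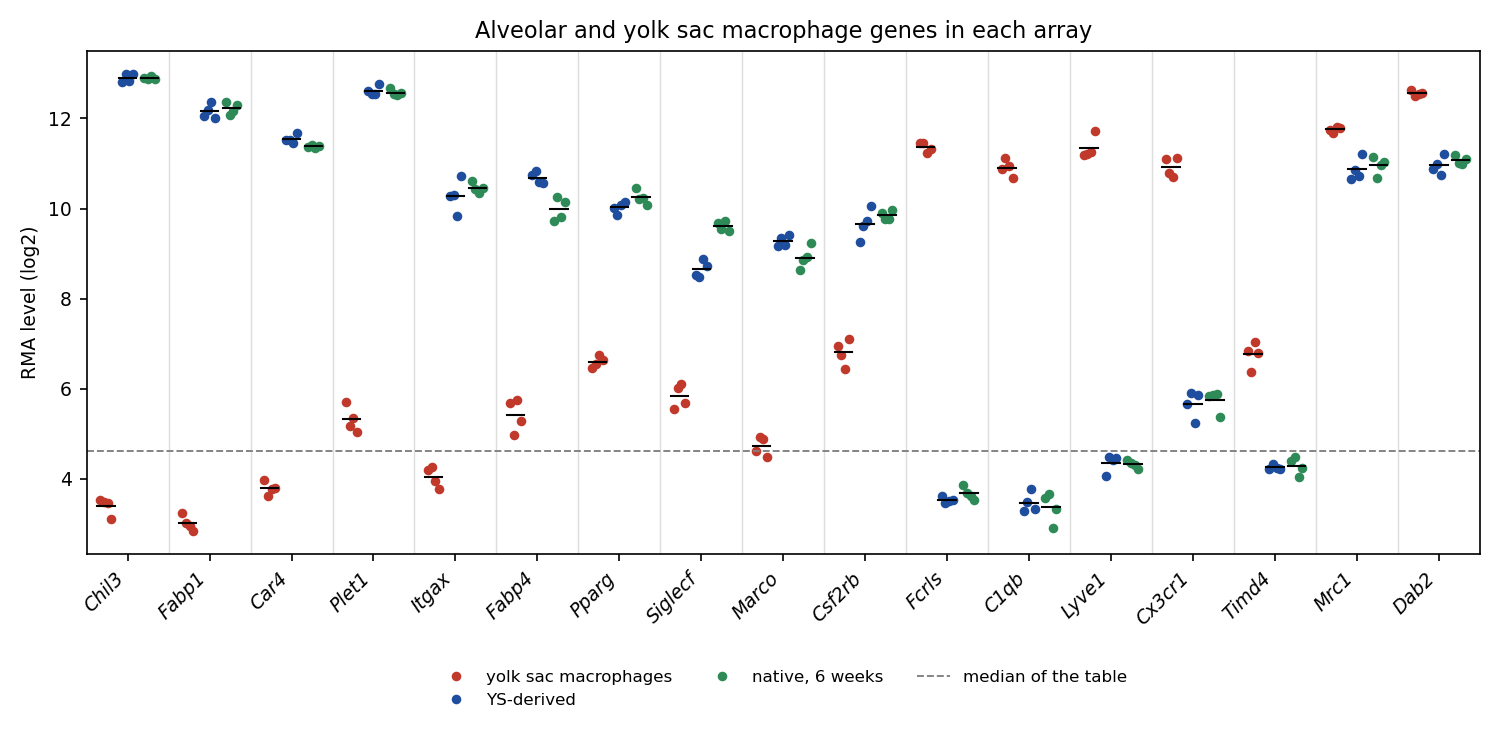
Log2 level of 17 marker genes in each of the 4 arrays of yolk sac macrophages (red), YS-derived macrophages (blue) and native alveolar macrophages aged 6 weeks (green); bars are group means and the dashed line is the median of the table. Blue points sit with the green ones for most genes, apart from Siglecf, where the YS-derived arrays (8.49 to 8.88) lie under the native ones (9.51 to 9.72).

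Transcription factors of lung macrophages mostly rose. Of 21 tested factors, 16 rose, 3 fell and 2 did not pass the test, with a median log2 difference of 0.60. Bhlhe41, a transcriptional repressor related to Bhlhe40, was 4.68, 3.18, 4.21 and 3.03 before and 8.81, 8.72, 8.60 and 9.07 after transfer (at least 18.1-fold). Bhlhe40 went from 5.05, 4.32, 4.41 and 4.55 to 8.81, 8.90, 8.83 and 9.22, at least 19.9-fold. The arrays did not overlap for either gene. Smaller rises were measured for Nr1h3 (the oxysterol receptor LXR alpha, 2.27), Cebpa (1.64), Klf4 (1.58) and Spi1 (the macrophage master regulator PU.1, 0.41).

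Etv5, an ETS family factor, was the largest fall of that list. It stood at 9.93, 9.25, 9.60 and 9.66 in yolk sac macrophages and at 4.10, 4.16, 4.85 and 4.61 in YS-derived macrophages, a fall of at least 31.7-fold (log2 difference -5.18 ± 0.26, adjusted p = 6.43e-18). Among 22 factors of fetal and tissue macrophages 10 fell, 3 rose and 9 did not pass the test (median -0.22). Mef2c, a factor of microglia, fell from 8.74, 8.57, 8.52 and 9.06 to 4.84, 4.31, 4.31 and 4.59. Maf, a factor that holds macrophages out of the cell cycle, fell from 7.98, 7.98, 8.40 and 7.47 to 4.04, 4.57, 4.38 and 4.51. Etv1 fell by 3.14 on the log2 scale. Id1 and Id2, targets of BMP and TGF-beta signals, were the largest rises of the list at 2.61 and 1.71.

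Parts of the GM-CSF receptor and its feedback genes rose together. Of 15 tested genes of colony-stimulating factor signalling, 8 rose and 3 fell (median 0.44). Csf2rb, the beta chain absent from the recipients' own cells, was 6.95, 6.76, 6.44 and 7.11 in yolk sac macrophages and 9.26, 9.62, 9.71 and 10.06 in their descendants (7.22-fold, log2 difference 2.85 ± 0.19, adjusted p = 2.40e-14). Its paralog Csf2rb2, with which a probe set can share signal, rose by 2.25, and the alpha chain Csf2ra by 1.94. Socs2 and Cish, feedback inhibitors of STAT5 signalling, rose by 3.33 and 2.00. Socs3, a feedback inhibitor of STAT3 signalling, fell by 1.21.

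Genes of lipid uptake, storage and efflux showed some of the largest changes. Of 26 tested members 19 rose and 4 fell, with a median log2 difference of 1.86. Besides Fabp1 and Fabp4, Olr1, a receptor for oxidised lipoproteins, went from 3.86, 3.62, 3.90 and 3.90 to 10.24, 10.44, 10.25 and 10.55 (at least 53.8-fold). Ch25h, which makes 25-hydroxycholesterol, went from 4.50, 4.95, 3.61 and 3.97 to 9.74, 9.97, 9.63 and 9.82 (at least 35.9-fold). Abcg1 and Abca1, the 2 cholesterol exporters of macrophages, moved in opposite directions. Abcg1 rose from 6.49, 5.73, 5.93 and 6.38 to 10.59, 10.57, 10.53 and 10.66, while Abca1 fell from 9.01, 8.96, 9.04 and 9.02 to 7.03, 7.26, 7.48 and 7.64. Neither pair of groups overlapped. Apoe, the lipoprotein that macrophages secrete, fell 24.2-fold, from 12.00 to 12.11 in the yolk sac arrays to 6.81 to 8.10.

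Cholesterol synthesis rose as a group. Of 20 tested genes 17 rose, none fell and 3 did not pass the test, and the median log2 difference was 1.05. Msmo1, a sterol methyl oxidase, was 7.20, 7.31, 7.38 and 7.28 before and 9.49, 9.13, 9.26 and 9.43 after transfer (4.10-fold, log2 difference 2.03 ± 0.15, adjusted p = 2.73e-13). Idi1, which interconverts isoprenoid building blocks, went from 6.07, 5.37, 5.81 and 5.95 to 8.17, 7.85, 7.32 and 7.64 (3.85-fold). Sc5d and Fdps rose by 1.67 and 1.59. The regulator of the pathway, Srebf2, rose by 0.84.

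The start-site windows of these genes share a short letter pattern. Windows of 300 bases, 250 before and 50 after the annotated start, were read from RefSeq (build GRCm38.p6), and 4 motifs were searched on both strands, none of which contains another: CCAAT (the box bound by NF-Y), TTTGGCGC (an E2F-type site), TTTGAA (the cell cycle homology region) and an NF-kB-type site (GGGA, any base, TTTCC). Of the 20 sterol genes 16 had a window, and CCAAT or its reverse complement was in 16 of these 16, against 37.4% of all 32851 windows and 41.8% of the tested genes that had one. A match is a description of letters, not of binding. The windows of the 2 sterol genes with the largest rise are printed 5′ to 3′ on the gene's strand, with CCAAT or its reverse complement in capitals. Msmo1 lies on the minus strand (chr8:64733529-64733828) and Idi1 on the plus strand (chr13:8885356-8885655).
Msmo1: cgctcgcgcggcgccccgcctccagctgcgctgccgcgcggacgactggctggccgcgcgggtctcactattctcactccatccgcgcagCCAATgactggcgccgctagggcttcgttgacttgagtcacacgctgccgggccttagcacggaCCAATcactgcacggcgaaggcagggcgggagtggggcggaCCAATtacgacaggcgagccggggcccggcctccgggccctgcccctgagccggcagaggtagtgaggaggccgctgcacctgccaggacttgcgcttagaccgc
Idi1: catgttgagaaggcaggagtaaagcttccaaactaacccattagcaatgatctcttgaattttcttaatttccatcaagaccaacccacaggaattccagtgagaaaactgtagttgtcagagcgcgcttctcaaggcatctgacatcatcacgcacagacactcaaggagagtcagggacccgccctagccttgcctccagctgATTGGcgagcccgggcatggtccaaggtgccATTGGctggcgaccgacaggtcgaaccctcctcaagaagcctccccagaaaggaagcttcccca

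The Msmo1 window held 3 matches and the Idi1 window 2. In fatty acid synthesis, 11 of 20 tested genes rose and 4 fell. Scd1, the stearoyl-CoA desaturase, rose from 4.10, 4.05, 3.97 and 3.46 to 8.61, 8.73, 9.19 and 9.04. Lpin1 and Dgat2, enzymes on the path to triglyceride, rose by 3.10 and 2.16, and Fads1, a desaturase of polyunsaturated fatty acids, fell by 2.32.

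Fatty acid breakdown, lysosomal acidification and oxidant defence rose in most members. In fatty acid oxidation and the peroxisome 21 of 28 tested genes rose and 2 fell (median 0.62). The largest were Abcd2, a peroxisomal fatty acid transporter (3.68), Pex11a (2.97), Acox3 (2.26) and Cpt1a, the gatekeeper of mitochondrial oxidation (1.99). Of 16 subunits and partners of the lysosomal proton pump 13 rose and 1 fell (median 0.78). Atp6v0d2, a macrophage and osteoclast isoform of a pump subunit, went from 6.15, 5.87, 5.86 and 5.59 to 12.30, 12.31, 12.23 and 12.33, an 86.0-fold rise far beyond the next subunit, Atp6v0e (1.36). Among cathepsins and other lysosomal proteins 15 of 28 rose and 5 fell. Ctsk went from 3.03, 4.25, 3.18 and 3.45 to between 10.92 and 11.05, and Gpnmb, a lysosomal glycoprotein of lipid-laden macrophages, rose at least 51.5-fold. In oxidant defence 16 of 24 rose and 2 fell (median 0.64), with Slc7a11, the cystine importer (4.56), Gstm1 (4.28) and Gsr, glutathione reductase (2.82), against a fall of the secreted peroxidase Gpx3 (-3.86).

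**Figure D3:**
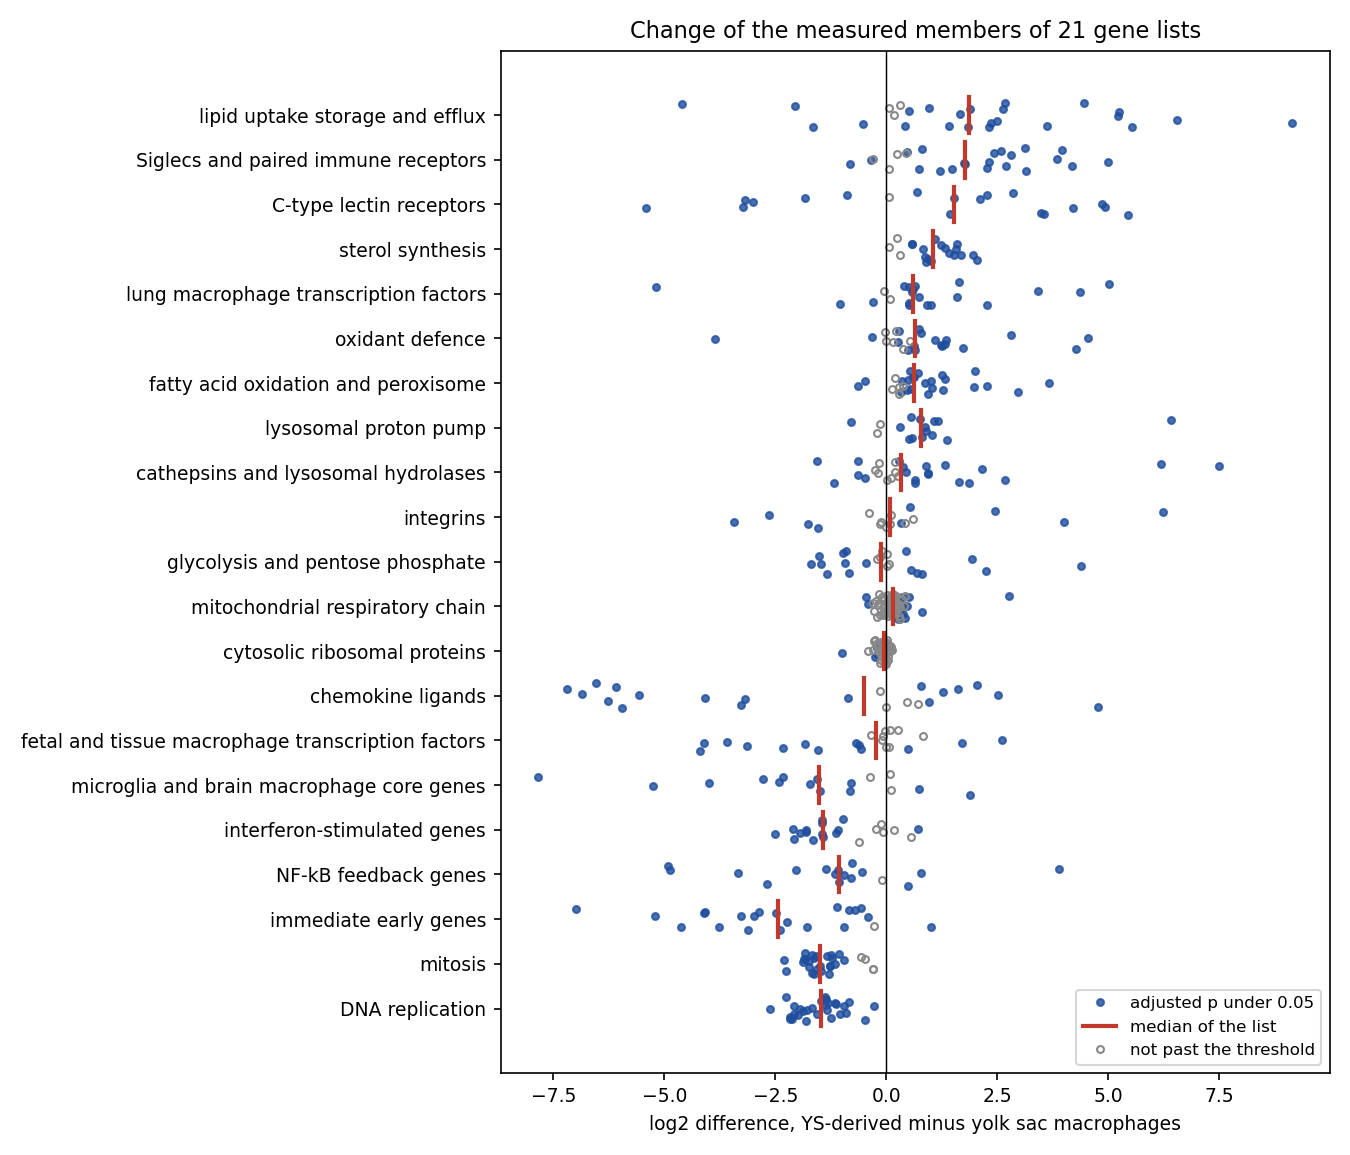
Log2 difference between YS-derived and yolk sac macrophages (horizontal axis) for each tested member of 21 gene lists (rows). Filled points passed an adjusted p of 0.05, open points did not, and red bars are list medians, from -2.44 for immediate early genes to 1.86 for lipid uptake, storage and efflux.

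Most Siglecs and paired immune receptors rose: 19 of 25, while 2 fell (median 1.77). Pilra, an inhibitory receptor, went from 5.06, 5.75, 5.68 and 5.93 to 10.48, 10.81, 10.44 and 10.72, and Treml4, Pilrb1 and Trem1 rose by 4.19, 3.96 and 3.85. Of 19 C-type lectins 12 rose and 6 fell. Clec7a, the beta-glucan receptor dectin-1, went from 5.80, 5.17, 5.10 and 6.13 to 11.06, 11.02, 10.91 and 11.04 (43.9-fold). Ly75 and Clec4d rose by 4.92 and 4.86, and Clec4a1 fell from 9.45, 9.64, 9.70 and 9.76 to 4.82, 4.39, 4.06 and 3.65.

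Among 17 tested integrin chains 5 rose and 4 fell, shares near those of all genes (19.6% and 23.2%), and without YS-derived replicate 3 or yolk sac replicate 2 the 5 became 3. The chains that pair as CD11 and CD18 accounted for 4 of the changes. Itgam (CD11b) fell from 6.12, 5.95, 5.70 and 6.39 to 3.51, 3.42, 3.24 and 3.42. Their shared partner Itgb2 (CD18) rose 16.0-fold, from 7.24, 7.41, 6.72 and 6.71 to 10.94, 10.91, 10.87 and 11.39. Itgal (CD11a) rose by 2.45, and Itgax was given above.

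Of 21 scavenger and dying-cell receptors and their bridges 11 rose and 6 fell. Axl, a receptor for dying cells, went from 5.70, 5.05, 5.45 and 5.68 to 10.27, 10.16, 10.14 and 10.60 (28.3-fold). Its bridging ligand Gas6 went the other way, from 9.37, 9.30, 9.13 and 9.63 to 3.92, 4.19, 4.23 and 4.29. Stab1, an endocytic receptor of fetal macrophages, fell by 5.78. Of 21 Toll-like and other pattern receptors 4 rose, 5 fell and 12 did not pass the test. The shares that rose and fell were near those of all genes (19.6% and 23.2%). Tlr1 fell from 9.09, 9.16, 9.23 and 9.52 to 3.31, 3.22, 3.73 and 3.33, and Tlr9 fell by 2.60, while Tlr8 rose by 2.16.

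The 12 largest falls were those of Fcrls, Ms4a6b, C1qb, Ccl12, Marcks, Lyve1, Egr1, F13a1, C1qc, Hbb-y, Ccl7 and Ccl2. Fcrls, an Fc receptor-like gene of microglia, stood at 11.46, 11.46, 11.23 and 11.33 in the yolk sac and at 3.63, 3.46, 3.50 and 3.54 after transfer, at least 107-fold lower (log2 difference -7.84 ± 0.18, adjusted p = 1.91e-27). C1qb and C1qc, chains of the first complement component, fell at least 78.0-fold and at least 89.8-fold. C1qb was 10.89, 11.11, 10.94 and 10.69 before and 3.29, 3.49, 3.78 and 3.32 after. C1qa fell from 10.57, 11.15, 10.81 and 10.86 to 4.69, 4.61, 4.50 and 4.88, near the median of the table. Of the 3 chains, C1qb and C1qc ended with means under that median. Of 11 tested complement genes these 3 and C3ar1, a receptor for the fragment C3a (-6.28), fell and 5 rose (median -0.04). Over all genes 23.2% fell and 19.6% rose. The rises were led by Cfb (2.03) and C1ra (1.25). The C5a receptor C5ar1 was 10.84 to 10.98 before and 10.76 to 11.08 after (difference -0.06 ± 0.18, adjusted p = 0.810).

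Ms4a6b, a membrane protein of unsettled function, was 11.37, 11.57, 11.51 and 11.43 before and 3.52, 5.00, 3.56 and 3.80 after transfer. Its relative Ms4a8a rose by 4.95, while Ms4a4a and Ms4a6c fell by 5.09 and 2.69. Probe sets of this family can share signal. Of 16 tested genes of the microglial core, 11 fell and 2 rose (median -1.52). Gpr84 and Gpr34, receptors that mark microglia, fell by 4.00 and 2.77, and Marcks and F13a1 (coagulation factor XIII) fell by 7.05 and 6.95.

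Of 22 chemokine ligands 11 fell and 7 rose, against 23.2% and 19.6% of all genes. The monocyte attractants fell most. Ccl2 was 12.06, 12.53, 12.44 and 12.42 in the yolk sac and 6.00, 5.59, 5.19 and 6.50 after transfer (92.8-fold lower). Ccl12 and Ccl7 fell at least 77.8-fold and at least 75.3-fold. Pf4, platelet factor 4, which yolk sac macrophages also carry, was 12.51, 12.56, 12.56 and 12.49 before. After transfer it was uneven between arrays, from 4.90 to 8.21. Ccl6, an alveolar macrophage chemokine, rose from 8.17, 7.91, 7.95 and 8.04 to 12.81, 12.85, 12.76 and 12.78, and Ccl22 and Ccl17 rose by 2.52 and 2.04.

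Immediate early genes, which cells switch on within minutes of a stimulus, fell in 20 of 22 tested members, with 1 that rose and a median log2 difference of -2.44. Egr1 was 11.83, 11.99, 11.93 and 11.88 in yolk sac macrophages and 5.02, 4.85, 4.74 and 5.09 in YS-derived macrophages (127-fold lower, log2 difference -6.98 ± 0.22, adjusted p = 2.43e-23). Ier3 fell from 10.82, 10.99, 10.49 and 10.87 to 5.87, 5.46, 5.42 and 5.58. Fosb and Jun fell by 4.63 and 4.11. NF-kB feedback genes fell in 13 of 17 and rose in 3 (median -1.06), led by Nfkbiz (-4.93) and Ptgs2, the inducible cyclooxygenase (-4.88), while Tnfaip2 rose by 3.90. Tnf fell from 11.66, 11.65, 11.27 and 11.67 to 7.67, 8.14, 8.23 and 7.52 and Il1b by 3.14. Il1rn, the natural antagonist of interleukin 1, rose from 6.66, 5.69, 5.70 and 5.79 to 10.05, 9.98, 9.99 and 9.99.

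Preparation differed between the 2 groups, as the yolk sac was digested with collagenase and the YS-derived cells were lavaged. For these signal-induced genes the effect of digestion cannot be told apart from that of cell state. FL monocytes were digested as well, and their change to FL-derived cells lowered 13 of the 22 immediate early genes and raised 6 (median -0.77), where 18.0% of all genes fell and 20.4% rose (38.3% in all). BM monocytes were not digested, and 9 of 22 fell there and 4 rose (median -0.36), where 16.1% of all genes fell and 20.3% rose (36.4% in all). The chemokine Cxcl2 fell from 11.96, 12.14, 12.04 and 11.94 to 5.79, 6.02, 6.41 and 5.47. Its window (plus strand, chr5:90903649-90903948) is shown because it held the NF-kB-type pattern, in capitals, as did those of Cxcl1 and Cxcl3. These were 3 of 16 chemokine genes with a window, against 0.411% of all windows and 0.499% of tested genes. Of the other 2, Cxcl1 fell by 0.87 and Cxcl3 (0.47) did not pass the test. The pattern was also in 2 of 14 NF-kB feedback genes with a window. Whether it bears on the falls was not tested.
Cxcl2: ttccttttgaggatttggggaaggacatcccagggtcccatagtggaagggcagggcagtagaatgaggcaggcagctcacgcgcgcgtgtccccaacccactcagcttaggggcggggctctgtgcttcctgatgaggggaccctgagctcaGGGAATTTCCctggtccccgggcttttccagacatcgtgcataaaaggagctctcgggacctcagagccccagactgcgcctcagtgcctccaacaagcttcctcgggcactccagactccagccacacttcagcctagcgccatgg

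Genes of the cell cycle fell. All 29 tested genes of DNA replication fell (median -1.47) and 25 of 29 genes of mitosis did, with 4 that did not pass the test (median -1.50). Uhrf1, which keeps DNA methylation through replication, was 9.62, 9.59, 9.22 and 9.51 before and 6.43, 6.77, 7.04 and 7.21 after transfer (6.15-fold lower, log2 difference -2.62 ± 0.21, adjusted p = 1.01e-12). Mcm6, a subunit of the replicative helicase, went from 9.53, 9.03, 9.17 and 9.44 to 6.78, 6.99, 7.30 and 7.41. Lig1 and Cdc6 fell by 2.25 and 2.17. Aurka, a kinase of the spindle pole, went from 9.08, 8.95, 8.79 and 9.08 to 6.80, 6.77, 7.12 and 6.02, and Plk1, Ect2 and Cdk1 fell by 2.27, 1.88 and 1.85. The groups did not overlap for Uhrf1, Mcm6 or Aurka. In these bulk samples fewer cycling cells and less RNA per cell cannot be told apart.

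The D-type cyclins were exchanged. Ccnd1 fell from 9.39, 9.51, 9.32 and 9.70 to 5.02, 5.34, 5.95 and 5.81 (log2 difference -3.95 ± 0.27). Ccnd2 rose from 6.01, 5.65, 5.00 and 5.62 to 10.48, 10.29, 10.23 and 10.77 (29.4-fold), and Ccnd3 differed by -0.14, which did not pass the test. Of 20 cyclins, kinases and inhibitors 7 fell and 4 rose, where 23.2% of all genes fell and 19.6% rose. The share that rose was near that of all genes.

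Among the 25 replication genes with a start-site window, 6 held TTTGGCGC (Cdt1, Dnmt1, Mcm3, Mcm5, Mcm6 and Pola1), against 0.514% of all windows and 1.12% of tested genes. Of the 25 mitosis genes with a window 19 held TTTGAA, against 17.9% of all windows and 14.2% of tested genes. CCAAT was in 20 of these 25 mitosis genes and in 16 of the 25 replication genes, against 37.4% of all windows and 41.8% of tested genes. Among the replication genes that hold TTTGGCGC, Mcm6 and Mcm5 had the 2 largest falls. The windows of Mcm6 (minus strand, chr1:128359656-128359955) and Mcm5 (plus strand, chr8:75109259-75109558) carry TTTGGCGC or its reverse complement in capitals. That of Aurka (minus strand, chr2:172370521-172370820) carries TTTGAA and CCAAT in capitals.
Mcm6: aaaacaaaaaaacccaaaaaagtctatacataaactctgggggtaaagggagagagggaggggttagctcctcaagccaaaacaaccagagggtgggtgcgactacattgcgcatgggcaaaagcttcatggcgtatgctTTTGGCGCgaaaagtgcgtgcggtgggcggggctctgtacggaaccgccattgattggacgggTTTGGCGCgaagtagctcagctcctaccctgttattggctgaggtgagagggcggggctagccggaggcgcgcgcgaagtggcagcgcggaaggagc
Mcm5: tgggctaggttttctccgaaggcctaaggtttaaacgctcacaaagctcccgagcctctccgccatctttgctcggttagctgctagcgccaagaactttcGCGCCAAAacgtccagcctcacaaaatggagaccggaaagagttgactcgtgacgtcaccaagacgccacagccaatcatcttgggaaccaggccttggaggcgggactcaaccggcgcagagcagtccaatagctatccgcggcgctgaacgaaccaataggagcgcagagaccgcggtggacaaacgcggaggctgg
Aurka: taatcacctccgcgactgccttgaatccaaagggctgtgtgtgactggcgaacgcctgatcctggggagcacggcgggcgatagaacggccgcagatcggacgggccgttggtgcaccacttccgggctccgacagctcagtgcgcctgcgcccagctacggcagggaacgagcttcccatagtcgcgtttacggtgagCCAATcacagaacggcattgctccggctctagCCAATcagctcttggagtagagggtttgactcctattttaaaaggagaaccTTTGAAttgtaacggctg

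Mcm6 held 2 matches of the E2F-type pattern and Mcm5 held 1, while Aurka held 1 of TTTGAA and 2 of CCAAT. Fetal growth genes fell in 6 of 9 tested members, and none rose. Igf2bp1, an RNA-binding protein of fetal tissue, went from 7.95, 8.14, 7.94 and 8.37 to 3.87, 4.22, 4.22 and 4.09. Lin28b, a repressor of let-7 miRNAs, and the growth factor Igf2 fell by 2.25 and 2.16. Of 17 tested genes of iron and heme handling 7 rose and 5 fell (median 0.23), against 19.6% and 23.2% of all genes. Slc40a1, the iron exporter ferroportin, fell by 4.28 and Tfrc, the transferrin receptor, by 3.91, while Alas1, the first enzyme of heme synthesis, rose by 2.13.

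Of 21 interferon-stimulated genes 14 fell and 1 rose (median -1.43). Rtp4 was 10.33, 10.36, 10.23 and 10.15 before and 8.76, 6.79, 7.13 and 8.32 after transfer, and Oas2, Ifit3 and Oasl2 fell by 2.11, 2.07 and 1.95. In YS-derived cells 6 of the 21 were higher than in native cells, against 1.02% of all genes, where Rtp4 was 5.95 ± 0.08 (SD, n = 4). Genes of MHC class II presentation rose in 8 of 12 members and fell in 1; without YS-derived replicate 4, 5 rose and 2 fell. H2-DMa, which loads peptides, rose from 5.54, 5.10, 4.69 and 5.69 to 10.33, 10.27, 10.28 and 10.63, and H2-Aa and H2-Ab1 rose by 4.04 and 3.08. The costimulator Cd86 fell from 9.16, 9.59, 9.45 and 9.64 to 5.08, 3.90, 4.95 and 5.62.

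Ribosomal proteins and the respiratory chain moved little by their medians. Of 53 ribosomal proteins 5 fell and none rose (median -0.05). Of 77 subunits of the respiratory chain 18 rose and 2 fell (median 0.15). Both shares of called genes were below that of all genes (42.9%). The share of the respiratory chain that rose was not below that of all genes (19.6%). Without 1 array (yolk sac replicate 1, or YS-derived replicate 1, 2 or 3) 10 or 11 respiratory chain genes rose. Without yolk sac replicate 1 or 2 or YS-derived replicate 1, 3 ribosomal proteins fell, and with an intensity trend 13 fell and 3 rose. Cox6b2, a subunit isoform, stood out in the respiratory chain with a rise of 2.78. Glycolysis moved more and split, with 7 of 22 that rose and 9 that fell, against 19.6% and 23.2% of all genes. Aldoc rose by 4.39 and Tpi1 fell by 1.51. Of 458 genes with a mean above 10 in both groups, 265 did not pass the test. The share that did pass was near that of all genes (42.9%).

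Markers of other cells were checked because sorted samples can carry them. The mean of the 11 measured erythroid genes was 5.19 to 5.64 in the yolk sac arrays and 3.97 to 4.08 in the YS-derived arrays, with 5 and 2 of the 11 genes above the median of the table. The embryonic globin Hbb-y was 10.93, 11.06, 10.00 and 9.78 in the yolk sac and 3.44, 3.59, 3.49 and 3.65 after transfer, and Hba-x and Hbb-bh1 fell by 4.52 and 3.26. Alas2, Klf1 and Gata1, which define erythroid cells, did not pass the filter on low values. The mean of 18 endoderm genes was 4.67 to 5.05 and 4.41 to 4.58, with 8 and 6 above the median; of 10 tested members 5 fell and 1 rose. Ttr, Apoa2 and Afp fell by 2.04, 1.82 and 1.41, Trf (transferrin) rose by 1.55, and Alb and Apob did not pass the filter. The part of these cells in the other falls was not tested.

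The mean of 17 neutrophil genes was 3.86 to 3.96 in the yolk sac and 4.46 to 4.81 after transfer, with 3 and 4 above the median. Of 14 tested members 3 rose (S100a8, Mmp8 and Cxcr2) and 1 fell (Mmp9, by 1.97). The share that rose was near that of all genes (19.6%). S100a8 rose from 4.67, 3.06, 3.44 and 3.37 to 10.52, 10.54, 10.81 and 10.26, and Mmp8 rose from 2.81 to 3.77 to 8.48 to 9.45. S100a9, the usual partner of S100a8, was 3.47, 3.56, 3.67 and 3.82 in YS-derived cells, under the median in every array, and Ngp was there as well. The means of the lists for lymphocytes (16 genes), dendritic cells (13), eosinophils with mast cells and basophils (15), endothelium (14) and fibroblasts (13) lay at or under 4.78 in all 8 arrays, with 1 to 5 members of each above the median. Of 6 tested lymphocyte genes Cd2 rose (6.49) and Cd79b fell (-4.02). Of 3 tested endothelial genes Flt1 rose (3.83), and Egfl7 (-1.28) and Pecam1 (-0.85) fell. Native cells carried Cd2 at 11.37 and Flt1 at 8.18. For lung epithelium (14 genes) the mean was 4.09 to 4.28 and 4.56 to 4.70; the club cell protein Scgb1a1 rose by 2.60, while Sftpc (0.62) did not pass the test. Platelet genes (9) had means of 5.66 to 5.78 and 4.88 to 5.40, with 6 above the median in both; Pf4 and Ppbp fell and 3 members rose, Clec1b among them. The part of these cells in the rises was not tested.

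Set against native alveolar macrophages, YS-derived cells differed in few genes. Of 12244 genes 211 passed the test (1.72%), 125 higher (1.02%) and 86 lower (0.702%) in YS-derived cells, and 79 and 43 of these differed at least 2-fold (0.645% and 0.351%). Arrays of the 2 groups did not overlap for 768 genes (6.27%). As this comparison uses the same YS-derived arrays as the one above, the results share their error. A profile was set on other arrays, adult alveolar against yolk sac macrophages, where 42.2% of all genes passed the test, 19.5% higher and 22.7% lower in adult cells. At least 4-fold differences were found there for 794 genes (6.48%), 414 higher and 380 lower in the adult cells. Of these 794, 65 (8.19%) differed between YS-derived and native cells, against 1.72% of all genes. Their median absolute log2 difference was 2.83 between adult alveolar and yolk sac cells and 0.19 between YS-derived and native cells. The YS-derived mean lay on the adult side of the midpoint for 775 of the 794 and on the yolk sac side for 19.

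Among genes higher in YS-derived than in native cells, Ddah1, which degrades an inhibitor of nitric oxide synthase, led. It was 6.67, 6.89, 6.14 and 6.58 in the yolk sac, 10.46, 10.35, 11.09 and 11.10 after transfer and 4.44, 4.60, 4.88 and 5.25 in native cells (62.0-fold higher than native, log2 difference 5.95 ± 0.55, adjusted p = 8.74e-09). Other transferred groups varied widely, from 7.48 to 9.85 in AM-derived, 6.18 to 7.24 in BM-derived and 4.16 to 8.88 in FL-derived cells. Every YS-derived array thus lay above every array of those groups. For Scd1 the YS-derived arrays (8.61 to 9.19) lay above native ones (4.68 to 6.22) but within the other transferred cells, which ranged from 7.26 to 10.01.

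The same held for Mmp12, the macrophage elastase (9.25 to 10.16, native 6.02 to 7.18, other transferred 7.05 to 10.50), and for Mfge8, a bridge to dying cells (7.83 to 9.03, native 5.35 to 6.03, other transferred 7.15 to 8.70, so that YS-derived arrays overlapped these). Akr1b8, Awat1, AA467197 and Fabp7 exceeded native cells by 3.41, 3.29, 3.09 and 2.74. Growth factor Igf1 did not pass the test over transfer (8.49 to 9.17 before, 8.50 to 8.66 after), and was 1.96 ± 0.26 higher in YS-derived than in native cells (adjusted p = 5.90e-06).

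Cldn1, Mbnl3 and Napsa were among the genes furthest below native cells. Cldn1, a tight junction protein, was 4.13, 3.69, 3.71 and 3.56 in the yolk sac, 5.29, 3.70, 3.96 and 4.27 after transfer and 7.64 ± 0.29 (SD, n = 4) in native cells (at least 8.11-fold lower than native, log2 difference -3.34 ± 0.34, adjusted p = 4.17e-08). Its level was 6.62 to 8.18 in the other transferred cells, all above the YS-derived arrays. Napsa, an aspartic protease, was 5.04, 4.76, 5.75 and 5.55 after transfer, against 7.74 to 8.07 in native and 6.46 to 8.04 in other transferred cells. Mbnl3, a splicing regulator, was 4.41, 4.22, 4.96 and 4.92, against 7.38 to 7.52 and 6.22 to 7.98. For these 3 genes no YS-derived array reached any other alveolar array named here; differences from the other transferred groups were not tested.

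Emb, an adhesion glycoprotein, had another pattern. It was 9.38 to 9.62 in the yolk sac and 8.59 to 9.14 in native cells but 5.01 to 6.90 in YS-derived cells and 4.41 to 8.90 in the other transferred cells. Gpr141, Adgrl3, Mctp2 and Epcam differed from native cells by -2.42, -2.28, -2.23 and -2.02. The Gpr141 mean was 3.72 in YS-derived and 6.14 in native cells, and 5.06 to 5.53 in the other transferred groups. For Mctp2 these means were 3.32, 5.55 and 4.18 to 5.51, and for Epcam 4.64, 6.66 and 5.23 to 6.25. Differences from the other transferred groups were not tested. Cldn1, Napsa, Gpr141, Mctp2 and Epcam were among the 19 profile genes whose YS-derived mean lay on the yolk sac side of the midpoint. The midpoint was set with adult alveolar cells, and a mean on its yolk sac side need not be unchanged. Cd74, Clec1b and H2-Eb1, also among the 19, rose over transfer and did not pass the limma test against native cells (adjusted p = 0.356, 0.617 and 0.587). Msr1, a scavenger receptor, was the brightest of the 19 on the high side (8.71, native 6.84). This was not particular to the yolk sac lineage, as the Msr1 mean was 8.06 in AM-derived, 8.76 in BM-derived and 8.35 in FL-derived cells. Msr1 was chosen after its values were seen.

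**Figure D4:**
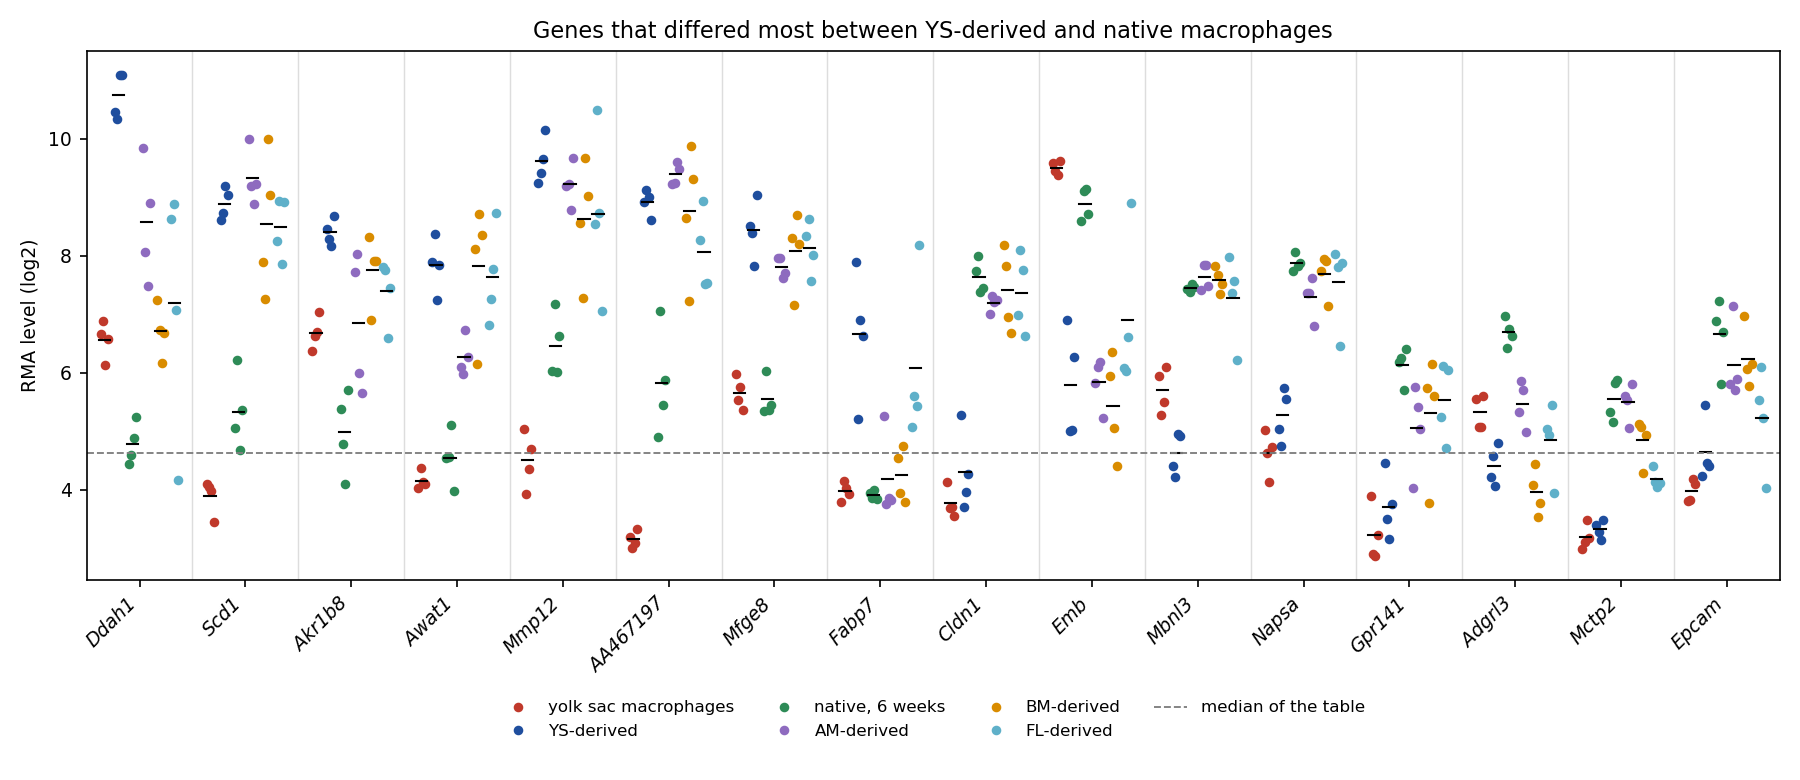
Log2 level of the 8 genes most above and the 8 most below native cells in YS-derived macrophages, in each array of 6 groups (colours); bars are means and the dashed line is the median of the table. Ddah1 was highest in the YS-derived arrays (10.35 to 11.10), and Cldn1, Mbnl3 and Napsa were lower there than in native, AM-derived, BM-derived and FL-derived arrays.

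The change over transfer was set against that of each kind of monocyte. The change from yolk sac to YS-derived cells differed from that of BM monocytes for 3751 genes (30.6%; 1523 more positive, 12.4%, and 2228 more negative, 18.2%) and from that of FL monocytes for 2808 (22.9%; 1161, or 9.48%, and 1647, or 13.5%). Both tests use the same yolk sac and YS-derived arrays and are not independent. Chil3 was 3.40 ± 0.20 (SD, n = 4) in yolk sac macrophages, 12.25 in BM and 4.75 in FL monocytes, and 12.90 ± 0.10, 13.02 and 13.01 in their descendants. The change thus differed from that of BM monocytes by 8.73 ± 0.19 (adjusted p = 5.14e-27). Mgst1 was likewise 3.73 in the yolk sac against 11.41 and 10.36 in the monocytes, and 11.22 to 11.47 in all 3 kinds of descendants.

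S100a8 rose from yolk sac cells (6.90) and fell from BM and FL monocytes (by 2.51 and 2.15), and means of 10.14 to 10.86 were reached in all 3. S100a9 was 3.55 and 3.63 before and after in the yolk sac lineage, and fell from 12.33 and 12.79 in BM and FL monocytes to 3.59 and 3.62. Ifitm6 and Ly6a2 fell by 8.49 and 7.83 from BM monocytes, and Stfa3 and Mpo, a granule enzyme, fell by 9.64 and 7.03 from FL monocytes. The means of these 4 genes were under the median of the table both in yolk sac and in YS-derived cells. The stefin Stfa3 has close relatives with which its probe set can share signal.

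The endocytic genes Dab2 and Mrc1, both in the marker panel and among the largest differences of change, converged from opposite sides. Dab2 fell from 12.56 to 10.96 in the yolk sac lineage and rose from 4.34 to 11.19 from BM and from 4.84 to 11.12 from FL monocytes (difference of changes -8.46 ± 0.23 against BM, adjusted p = 1.37e-24). Mrc1 fell to 10.87 in the one and rose to 11.06 and 10.95 in the others, from 4.69 and 3.26. Fcrls, Lyve1 and Ccl12 were near or under the median of the table in both monocytes and in all 3 kinds of descendants, so only the yolk sac lineage had them to lose. Pf4 and Cxcl2 fell by 6.26 and 6.10 from the yolk sac and rose by 2.88 and 1.76 from BM monocytes.

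**Figure D5:**
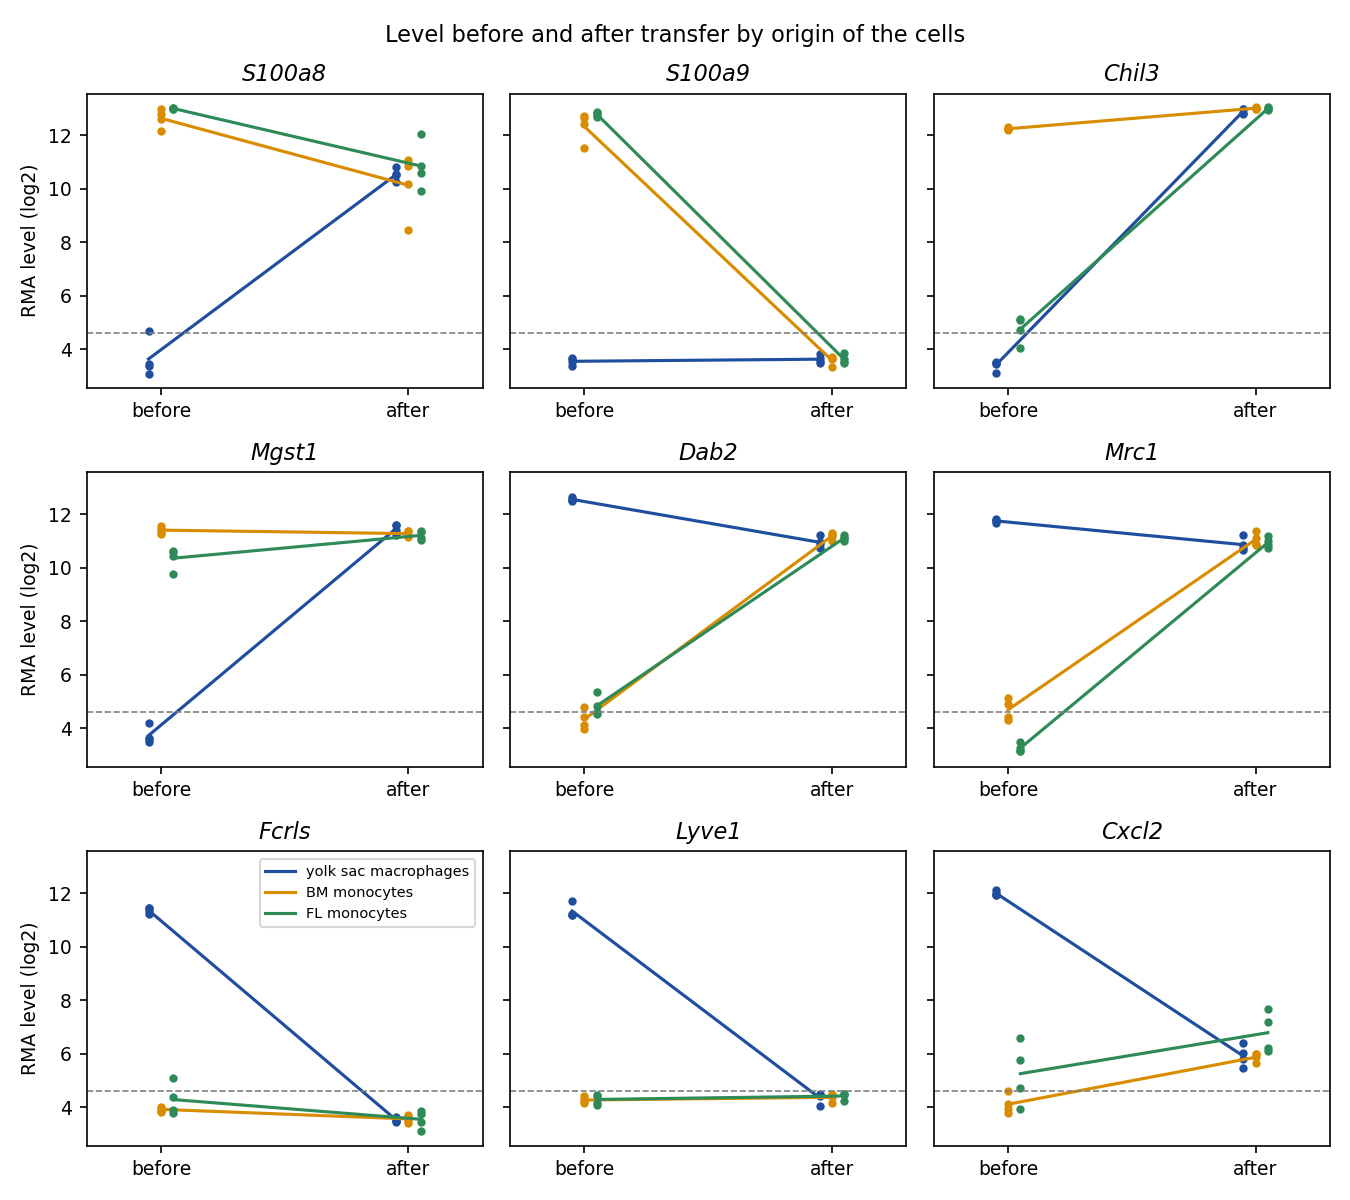
Log2 level before and after transfer of yolk sac macrophages (blue), BM monocytes (orange) and FL monocytes (green) for 9 genes; points are arrays, lines join group means and the dashed line is the median of the table. Dab2 and Mrc1 start high only from the yolk sac and end at 10.87 to 11.19 from each origin, whereas Fcrls and Lyve1 end near or under the median from each.

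The shift of gene groups by origin is given as each comparison's own values. DNA replication fell in 29 of 29 genes from the yolk sac (median -1.47), in 28 from FL monocytes (-1.74) and in 8 from BM monocytes (-0.30). Lipid uptake, storage and efflux rose in 19 of 26 from each origin, with medians of 1.86 from the yolk sac, 2.06 from BM and 1.90 from FL monocytes. NF-kB feedback genes fell in 13 of 17 from the yolk sac and in 5 from either monocyte. Interferon-stimulated genes fell in 14 of 21 from the yolk sac, 19 from BM and 2 from FL monocytes. Beside these counts, 16.1% of all genes fell from BM and 18.0% from FL monocytes, and 20.3% and 20.4% rose.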

How the data were processed

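RNA of 36 sorted cell samples was amplified and hybridised to Affymetrix Mouse Gene 1.0 ST arrays. The deposited values are log2 levels normalised by the authors with RMA, per the submitters' processing notes, and its version is not given in the sources used here. RMA equalises the distributions of all arrays, so a change shared by most genes would not show. Of 35556 probe sets 21789 carry 1 gene symbol, 1621 carry several and 12146 are unnamed here. The last 2 kinds were left out, and the probe set with the highest mean stood for each of 19938 genes. Array medians lay between 4.54 and 4.73, and the number of arrays limits the precision.

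Genes above the median of the table, 4.62, in at least 4 arrays were fitted with limma 3.58.1 (R 4.3.3), with 9 group means over 36 arrays and a shared spread, and Benjamini-Hochberg adjusted p-values under 0.05 were called. Tested on simulated data for YS-derived against yolk sac cells (12244 genes, 200 changed), the fit recovered 87% of log2 changes of 1 and 99% of log2 changes of 2, with 7 false calls. The simulated noise was independent between genes and the groups had no other differences. These figures check the fit and do not give the error of the counts reported here.

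Genes named are a marker panel, the 12 largest rises and falls, and up to 4 called members per list. The 8 largest differences from native cells each way and the 6 largest differences of change each way are named too. The 12 rises and falls and the 8 differences were limited to genes whose arrays did not overlap between the 2 groups. Other members are given by value. Predicted, RIKEN, small RNA and receptor-cluster symbols were left out. Members and lists (52 lists, 1211 entries) were chosen with earlier results of these data known. Alternatives were array centring, an intensity trend, the mean of probe sets, no or a stricter filter, only the groups compared, a replicate block and leaving out each array. Same-numbered samples of the yolk sac and YS-derived groups had deviations correlated at -0.136 to 0.0361, so the numbers were not taken to pair samples. Start-site windows came from RefSeq (GRCm38.p6); 9816 of 12244 tested genes matched one.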

Additional observations from a re-analysis of the deposited data

Results flagged for a closer look

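In 7 of 150 groups of 4 arrays checked for the genes named, 1 array lay far from the other three; chance alone gives about 1 in 20 such groups. In the yolk sac group the lowest Chil3 array was 3.10 (nearest 3.46), and the highest Lyve1 array was 11.72 (nearest 11.25). In native cells the lowest Cx3cr1 array was 5.37 (nearest 5.83), and the lowest Egr1 array was 4.85 (nearest 5.32). The highest native arrays were 4.54 for F13a1 (nearest 4.21), 4.47 for Ccl7 (nearest 4.14) and 6.03 for Mfge8 (nearest 5.46). None of these gaps came near the distance between yolk sac and YS-derived cells for Chil3, Lyve1, Cx3cr1, Egr1, F13a1 or Ccl7.

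The change from yolk sac to YS-derived cells differed from the change of monocytes, by the test of that difference in limma, for each gene given here. Against BM monocytes the change was more positive for S100a8 (9.40), S100a9 (8.82), Chil3 (8.73), Ifitm6 (8.36), Ly6a2 (7.90) and Mgst1 (7.87). It was more negative for Pf4 (-9.14), Dab2 (-8.46), Cxcl2 (-7.86), Ccl12 (-7.60), Fcrls (-7.48) and Mrc1 (-7.26). Against FL monocytes the change was more positive for Stfa3 (9.35), S100a9 (9.26), S100a8 (9.05), Ifitm6 (7.76), Mgst1 (6.89) and Mpo (6.88). It was more negative for Mrc1 (-8.58), Dab2 (-7.89), Cxcl2 (-7.63), Ccl12 (-7.50), Lyve1 (-7.12) and Fcrls (-7.10). The means of S100a9, Ifitm6, Ly6a2, Stfa3 and Mpo were under the median of the table in yolk sac and YS-derived cells, so their values reflect the fall in monocytes and no measured change of the yolk sac lineage. Where only 1 end of a change was above that median, as for Chil3, Mgst1 or Fcrls, the value rests partly on background signal. Both sets of values use the same yolk sac and YS-derived arrays.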

How the results depend on the processing

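Counts of called genes over all genes and over the profile genes stayed within 1.5 times their value under each alternative run. The change from yolk sac to YS-derived cells gave 4915 genes with the stricter filter and 5531 with none, and 4816 to 4978 when 1 array was left out. The difference from native cells gave 177 to 201 with 1 array left out, and the profile genes gave 55 to 69. With the replicate block, whose numbers do not pair the samples, the counts were 5233, 217 and 70, with 3719 and 2796 for the differences from BM and FL monocytes. Of 3308 values of 221 genes under alternatives, 3274 kept direction and side of the threshold, 31 lost the call, 1 gained it and 2 turned sign. The latter were Mpo (0.0808 without yolk sac replicate 3, and down to -0.249 without replicate 4) and Stfa3 (0.027 without replicate 4, and down to -0.494 without replicate 2), neither of which was called; the cause was not tested. Of 1560 list counts 1508 stayed within 1.5 times and 52 did not, among them those of ribosomal proteins, the respiratory chain, integrins, MHC class II, and falls of Siglecs and paired receptors (2, or 1 under 10 alternatives). Centring the arrays moved the median of all genes by -0.00999, and 1 list median, that of megakaryocytes and platelets, changed sign. Levels near the median of the table are close to background, which limits the folds given as lower bounds.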

Other observations

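Several genes of epithelial-type adhesion rose. Of 15 tested members 9 rose and 3 fell. Besides Plet1 and Krt19, F11r, the junctional adhesion molecule A, went from 4.44, 4.19, 4.31 and 3.93 in the yolk sac to 9.66, 9.61, 9.52 and 9.58 after transfer. Perp, a desmosomal protein, went from 4.42, 3.78, 4.69 and 3.68 to 9.58, 9.19, 9.41 and 8.97, and Cdh1 (E-cadherin) from 5.15, 5.00, 5.28 and 5.25 to 8.21, 8.60, 8.64 and 9.02. Arrays of the 2 groups did not overlap for these genes. Cadm1, another adhesion molecule, fell from 6.52, 6.84, 6.80 and 6.88 to 3.95, 4.20, 3.92 and 4.05. Against native cells 2 of the 15 were higher (1.02% of all genes) and 4 lower (0.702%), Cldn1 and Epcam among the latter.

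Receptors for nucleotides and secreted clotting factors changed too. P2ry14, a receptor for UDP-sugars, went from 4.54, 4.59, 4.30 and 4.32 to 9.53, 9.56, 9.08 and 9.31. P2ry12, the ADP receptor of microglia, fell from 8.37, 8.90, 8.73 and 8.85 to 7.23, 7.31, 6.60 and 6.86. Of 11 tested purinergic receptors 4 rose and 5 fell, against 19.6% and 23.2% of all genes. Among 23 matrix proteins and proteases 9 rose and 8 fell, against the same shares of all genes. The clotting factors F7 and F10 rose by 5.26 and 4.25. The growth factor Pdgfc rose by 4.07 and Bmp2 fell by 3.45. Of the chemoattractant receptors, Cmklr1, the chemerin receptor, fell by 3.85 and Cxcr1 rose by 2.69.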
